A study of Mus musculus with 12 samples.

Results

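BK_APP neurospheres, which were treated with bradykinin (BK), were compared with untreated APP_WT neurospheres on 4 of the 12 arrays of the series. These are the arrays whose labels set BK_APP against APP_WT, and each held 1 BK_APP sample and the APP_WT sample of the same replicate number. Both groups came from neural precursor cells of the telencephalon of APPswe/PS1dE9 C57BL/6 mouse embryos at day 13, so that the untreated cells carried the transgenes too. Neurospheres, which are floating aggregates of such precursors, were allowed to attach and to differentiate for 7 days without growth factors. BK was given at 1 µM on days 0, 3 and 6, APP_WT cells were left untreated, and RNA was taken on day 7. Cells that received the solvent of BK alone, and the number of embryos behind each sample, are not described in the sources used here. The other 8 arrays set APP_WT against WT and HOE_APP, treated with a blocker of the B2 kinin receptor, against APP_WT, and they served to estimate the spread of each probe.

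BK is a short peptide that kallikreins release from kininogens and that peptidases degrade within a short time. It acts mainly on the B2 receptor, which is coupled to Gq proteins, phospholipase C, calcium release and protein kinase C, and its shortened form without the last arginine acts on the B1 receptor, which inflammation induces. BK is known for pain, for dilated and leaky vessels and for inflammation, and in cultures of neural precursors it has been studied for its part in the choice between proliferation and differentiation. The comparison asks which transcripts differ after a week of repeated BK in cells that carry the transgenes.

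Values are log2 ratios of BK_APP over APP_WT, so that 0 means equal signal and a value above 0 means more signal in BK_APP. BK_APP was labeled with the red dye Cy5 on arrays 1 and 2 and with the green dye Cy3 on arrays 3 and 4. All ratios were turned to BK_APP over APP_WT, and a dye term in the fit removed the part that changed sign with the dye. The estimate of a gene weights both dye orientations equally. The 4 values given for a gene are those of arrays 1, 2, 3 and 4 in this order, they still hold the dye effect, and the error given with an estimate is their SD (n = 4). The labels call the 4 samples of a group biological replicates, and the p-values measure the spread between them.

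Before the genes are described, some properties of the arrays are needed. All 4 lay on 1 slide. In the channel of BK_APP 54.2% and 55.1% of the probes were well above background on arrays 1 and 2, and 45.8% and 43.9% on arrays 3 and 4, while in the channel of APP_WT the share lay between 46.2% and 51.0%. Log2 ratios of arrays with the same orientation correlated positively across probes, with r = 0.283 for arrays 1 and 2 and r = 0.245 for arrays 3 and 4. Arrays of opposite orientation correlated negatively, with r between −0.323 and −0.113 over 29117 probes, which are not independent replicates. Expressed probes below −0.7 numbered 16, 136, 214 and 17 on arrays 1 to 4, and those above 0.7 numbered 22, 1, 31 and 5. On array 2, 72.8% of the low spots had another low spot within 5 rows and columns, against 14.6% of all spots, and on array 3, with more low spots, 29.0% had one, against 34.4% of all spots. The set of 13 reference genes (such as actin and ribosomal protein genes) had medians of 0.10, 0.08, 0.01 and −0.14 on arrays 1 to 4, so that array 4 lay below the others for these genes too. Transcripts of the Y chromosome (Ddx3y, Eif2s3y) were well above background in both channels on array 1 only and Xist in both channels on arrays 2, 3 and 4 only, which means that BK_APP and APP_WT of the same number had the same pattern. The part of these differences between arrays in the results was not tested.

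Markers of the neural cells that such precursors form were present in both groups, as the labels imply. Well above background on all 4 arrays were 5 of 5 neuronal, 4 of 4 GABAergic, 5 of 5 astrocyte, 5 of 5 oligodendrocyte lineage and 3 of 3 progenitor markers. Of 5 microglial markers, Aif1, Cx3cr1 and Csf1r were well above background on all arrays in both groups, Tmem119 on 3 of 4 arrays in BK_APP and on 4 in APP_WT, and P2ry12 on none. The cultures therefore held transcripts of microglia besides those of neural cells. Of markers of other cells, Pecam1 of endothelium, Pdgfrb and Col1a1 of pericytes and fibroblasts, Cd3e of T cells and Hba-a1 of erythroid cells were well above background on all 4 arrays in both groups. Cldn5 of endothelium, Rgs5 of pericytes, Ccr2 and S100a8 of monocytes and neutrophils, and Hbb-bs and Alas2 of erythroid cells were well above background on none. Of the longer peripheral myeloid list 3 genes were expressed, with estimates between −0.09 and −0.00. Of 22 lymphocyte genes on the array 7 were expressed, and the partners of Cd3e, Cd3d and Cd3g, were well above background on no array. A probe that is not above background does not show that a cell type is absent. In RNA of mixed cultures, a change in the number of cells of a type and a change of RNA per cell cannot be told apart.

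No probe passed the adjusted threshold. Of 29361 expressed probes, 0 (0% of those tested) had a limma p below 0.05 after Benjamini-Hochberg adjustment, and the smallest adjusted p was 0.967. Leaving out array 1 gave 62 such probes, 61 of them lower in BK_APP, in a fit where array 2 was the remaining array with BK_APP in Cy5, and leaving out array 2 or array 4 gave 2 each. Without adjustment 1311 probes had a limma p below 0.05. Of these 618 (2.10% of all expressed probes) were higher in BK_APP and 693 (2.36%) were lower. Without array 2 these counts were 400 and 354, without array 3 they were 359 and 747, and without array 1 they were 487 and 835, so that 32.5% and 36.8% of the latter 2 sets were higher. When each array was centered on its median in place of the loess normalization, the counts were 850 higher and 245 lower, the share of higher probes went from 47.1% to 77.6% and the median of all probes moved to 0.04. With the signals processed by the scanner software the counts were 637 and 432, with 59.6% higher, and with the ratio table of the authors they were 521 and 365, with 58.8% higher. The balance between higher and lower probes thus depended on the scaling and on single arrays.

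Differences were small. The median size of the log2 ratio was 0.05, 99% of the probes lay within 0.24 of 0, and 99.3% lay within a fold of 1.2. Only 197 probes were beyond a fold of 1.2 and 2 beyond a fold of 1.5. The median SD between arrays was 0.14, and the 95% interval of a probe extended by a median of 0.14 to either side of its estimate. For 61.5% of the probes the dye coefficient was larger in size than the BK coefficient, and 511 probes had an adjusted limma p below 0.05 for dye.

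Signs on all 4 arrays were counted on values that still hold the dye effect, which has opposite signs in the dye orientations. Of the expressed probes 1486 (5.06%) were above 0 on all 4 arrays and 1344 (4.58%) were below 0 on all 4. Among 14330 named genes, each represented by its brightest probe, 7230 (50.5%) had an estimate above 0, 377 (2.63%) were higher and 309 (2.16%) lower at an unadjusted p below 0.05, and 825 (5.76%) were above and 648 (4.52%) below 0 on all 4 arrays. The median over these genes was 0.00. These shares are the background for the gene groups described next, none of which had a member past the adjusted threshold. Some groups share genes, such as Cxcl10 in the chemokine and interferon-induced lists, so that their counts are not independent.

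**Figure D1:**
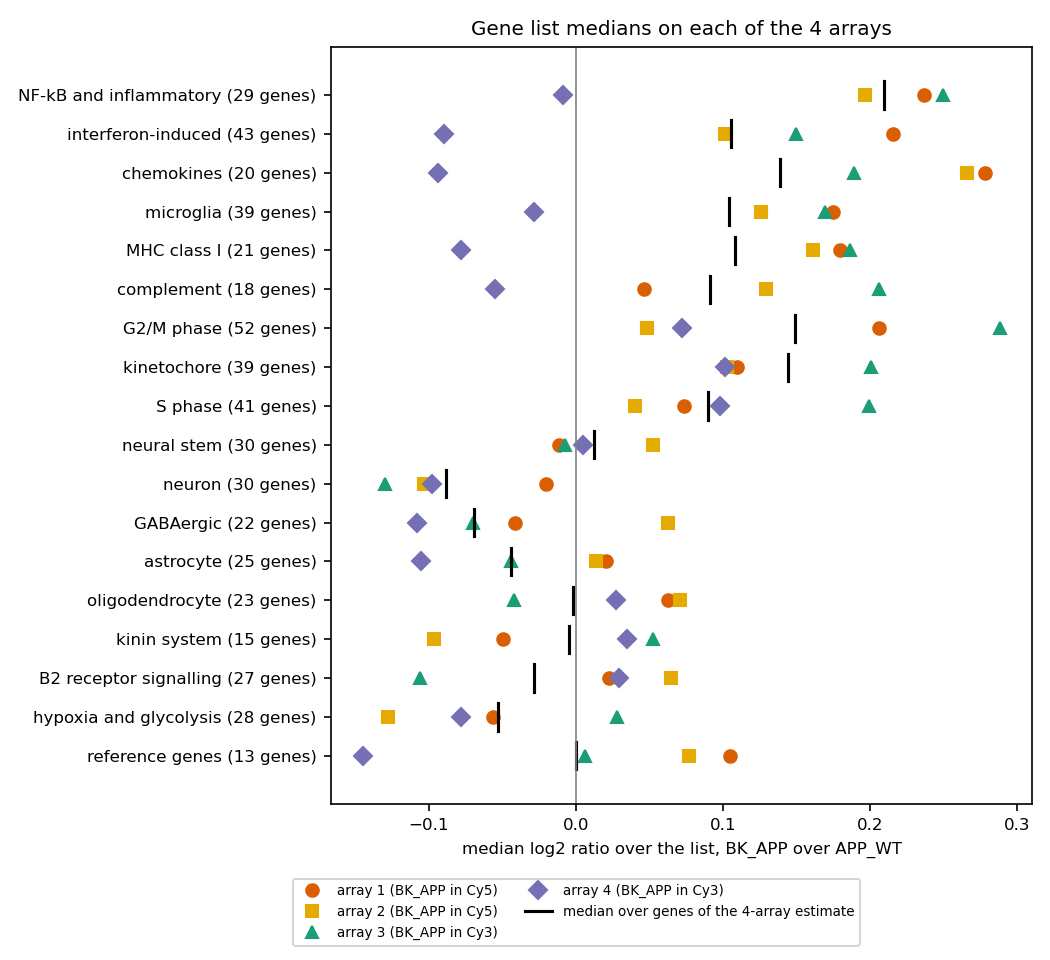
Median log2 ratio of BK_APP over APP_WT over the expressed genes of 18 lists (horizontal axis), with 1 symbol for each of the 4 arrays and a black bar for the median of the 4-array estimates. The immune lists lie above 0 on arrays 1, 2 and 3 and below 0 on array 4, the 3 cell cycle lists lie above 0 on all 4 arrays, and the neuron list lies below 0 on all 4.

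The kinin system itself showed no difference beyond the spread between arrays. Probes for the B1 receptor (Bdkrb1) and the B2 receptor (Bdkrb2) were well above background on 0 of 4 arrays in both groups, as were those for the kininogens (Kng1, Kng2) and for factor XII (F12), which activates plasma kallikrein. Plasma kallikrein (Klkb1) and tissue kallikrein (Klk1) were well above background on at most 1 array. The receptor transcripts were therefore not measurable on these arrays, which gives no information on the receptor proteins.

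Of the 26 genes of the list 15 were expressed, most of them peptidases that cleave kinins. Of the 15, 6 had an estimate above 0 and 9 below it, with a median of −0.00, and 0 had an unadjusted p below 0.05. Angiotensin-converting enzyme (Ace), a major kininase, had values of −0.08, 0.05, −0.01 and −0.10, with an estimate of −0.03 ± 0.07. The 4 values lay on both sides of 0. Neprilysin (Mme), which degrades BK as well as amyloid-beta, had an estimate of 0.02 ± 0.10, but it was well above background on 1 array in BK_APP and on none in APP_WT.

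Carboxypeptidase D (Cpd) and carboxypeptidase M (Cpm), which remove the last arginine and so form the ligand of the B1 receptor, had estimates of −0.08 ± 0.25 and −0.08 ± 0.13. Prolyl endopeptidase (Prep) was at 0.04 ± 0.06, prolyl carboxypeptidase (Prcp) at 0.05 ± 0.21 (−0.11, −0.16, 0.22 and 0.24, following the dye, with another probe at −0.13) and thimet oligopeptidase (Thop1) at −0.06 ± 0.07. Each of these estimates was smaller than its SD. Serping1, the C1 inhibitor that restrains kallikrein, had the highest estimate of the list, 0.15 ± 0.31, from values of −0.18, 0.57, 0.15 and 0.07. Its values lay on both sides of 0.

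Downstream of the B2 receptor, 27 of 33 genes of Gq signaling and of nitric oxide and prostaglandin synthesis were expressed, 9 of them with an estimate above 0. Plcb1, a phospholipase C that Gq activates, had values of −0.14, −0.22, −0.14 and −0.12, and its estimate was −0.16 ± 0.05 with an unadjusted limma p of 0.0494. All 4 values were below 0 and close to each other. Plcb3, which Gq also activates, had an estimate above 0, 0.11 ± 0.09, with an unadjusted limma p of 0.0833. Ptgds, the prostaglandin D synthase, had values of −0.30, −0.21, −0.17 and −0.05, with an estimate of −0.18 ± 0.10 and an unadjusted limma p of 0.00878. These were the 2 genes of the list below 0 on all arrays, and no gene of it was higher at that threshold. The inducible cyclooxygenase Ptgs2 and the neuronal nitric oxide synthase Nos1 were not well above background.

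Early response genes, which receptors coupled to Gq can induce within an hour, were measured a day after the last dose. Of 28 expressed genes 17 had an estimate above 0, and 3 were higher and 3 lower at an unadjusted p below 0.05. Dusp1, a phosphatase that ends MAP kinase signaling, had values of 0.39, 0.28, 0.48 and −0.00, with an estimate of 0.29 ± 0.21. Ier3 was at 0.26 ± 0.18 and Dusp6, which acts on ERK, at 0.25 ± 0.25, each with its lowest value on array 4. Fosl1, a subunit of AP-1, had the lowest estimate, −0.35 ± 0.57, and was well above background on 2 arrays in BK_APP and on 4 in APP_WT. The estimate rested on a value of −1.19 on array 2 against 0.09, −0.13 and −0.19 on the others. Fos (0.10 ± 0.06) was above 0 on all 4 arrays.

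With the filter on background, the list of NF-kB subunits, inhibitors and inflammatory genes had the highest median among the lists not taken from the study. Of 29 expressed genes 26 had an estimate above 0, against 50.5% of all named genes, with a median of 0.21 against 0.00. At an unadjusted p below 0.05, 15 were higher and 0 lower, where 2.63% of all named genes were higher, and 12 were above 0 on all 4 arrays, where 5.76% of all were. The median of the list was 0.24, 0.20, 0.25 and −0.01 on arrays 1 to 4 (SD 0.12). Arrays 1, 2 and 3 were thus close to each other and array 4 was near 0, and the median was 0.26 without array 4 and 0.12 without array 3. Without the filter the median of the NF-kB list was 0.138 over 41 genes, below that of the kinetochore list at 0.143.

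Among these genes, Saa3, an acute phase protein, had the highest estimate, 0.43 ± 0.45, from values of 0.67, 0.52, 0.75 and −0.23. Gch1, which makes the cofactor of nitric oxide synthase, had values of 0.35, 0.24, 0.60 and 0.14, with an estimate of 0.33 ± 0.20. In the first gene array 4 was on the other side of 0, and in the second all arrays were above it. Tnfaip2, a gene induced by tumor necrosis factor, had values of 0.24, 0.35, 0.20 and 0.28, with an estimate of 0.27 ± 0.06. It was among the genes of the list whose 4 values were closest together. Of the inhibitors of the pathway, Nfkbia was at 0.26 ± 0.17 and Tnfaip3, which removes ubiquitin from signaling proteins, at 0.24 ± 0.10. A probe of another inhibitor, Nfkbib, had an estimate of −0.21, from values of 0.04, −1.02, 0.19 and −0.07. Of the subunits, Nfkb1 was at 0.10 ± 0.06, Relb at 0.06 ± 0.19 and Rela at −0.02 ± 0.29. Nos2, the inducible nitric oxide synthase, was at −0.05 ± 0.23.

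Chemokines held the gene with the highest estimate among those of 1 sign on all arrays. Cxcl5, which attracts neutrophils, had values of 0.74, 0.53, 0.69 and 0.02, and its estimate was 0.49 ± 0.33, a fold of 1.41, with an unadjusted limma p of 0.000649. Arrays 1 to 3 were all above 0.5 and array 4 was near 0. Of 20 expressed chemokine ligands and receptors 16 were above 0, 7 were higher and 0 lower at an unadjusted p below 0.05, and the median was 0.14, or 0.07 without array 3 and 0.21 without array 4. The macrophage inflammatory proteins had similar values, with Ccl4 at 0.66, 0.43, 0.33 and −0.04 (0.35 ± 0.29) and Ccl3 at 0.69, 0.35, 0.19 and −0.17 (0.26 ± 0.36). The monocyte attractant Ccl2 was at 0.54, 0.51, 0.31 and −0.21 (0.29 ± 0.34). In these 3 genes array 4 was the one below 0. Their values also differed with the dye orientation. Ccl3 had a mean of 0.52 on arrays 1 and 2 and of 0.01 on arrays 3 and 4. Ccl2 had means of 0.52 and 0.05, and Ccl4 had means of 0.54 and 0.15. Ccl5, which attracts T cells, had an estimate of 0.09 ± 0.20.

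Interferon-induced genes had a lower median. Of 43 expressed genes 38 had an estimate above 0, with a median of 0.11, and 5 were higher and 0 lower at an unadjusted p below 0.05, or 9 and 0 without array 4. Their medians were 0.22, 0.10, 0.15 and −0.09 on arrays 1 to 4 (SD 0.13), and the 4-array median of 0.11 became 0.16 without array 4 and 0.04 without array 3. Cxcl10, the interferon-induced ligand of Cxcr3, had values of 0.52, 0.33, 0.48 and −0.18 (0.29 ± 0.32), and Gbp5, a guanylate-binding protein of the inflammasome pathway, had 0.28, 0.24, 0.65 and 0.00 (0.29 ± 0.27). Ifit1, which binds viral RNA, had 0.43, 0.25, 0.20 and 0.14 (0.25 ± 0.12) and was above 0 on all 4 arrays. Irf9 and Irf7, 2 transcription factors of the pathway, had estimates of 0.00 ± 0.12 and 0.05 ± 0.08. For 18 of 21 expressed genes of MHC class I presentation the estimate was above 0, with a median of 0.11, or 0.04 without array 3 and 0.16 without array 4, and 2 genes were higher at an unadjusted p below 0.05, or 8 without array 4. Their medians were 0.18, 0.16, 0.19 and −0.08 on arrays 1 to 4. Psmb9, a subunit of the immunoproteasome, had the highest of these, 0.27 ± 0.26.

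Promoter sequence was examined because inflammatory genes share binding motifs for NF-kB and for interferon regulatory factors. Promoters of RefSeq (build GRCm38.p6) were available for 80 of 105 genes, those of the rule given with the methods without the further list members. A window of 300 bases, 250 before and 50 after the start, was searched on both strands. The kB motif GGANTTTCC was found for 7 of 23 genes of the NF-kB list with a promoter (30.4%), against 1.45% of 27025 symbols. The core of the interferon response element, GAAANNGAA, was found for 21 of 31 interferon-induced genes (67.7%), against 9.76% of all. A match is a description of the letters and not evidence of binding. These shares were counted over all expressed list members with a promoter, whatever their ratio. They describe how the lists are composed and say nothing on BK. Of Cxcl10 (chr5:92348890-92349139, minus strand) and Tnfaip2 (chr12:111442411-111442660, plus strand) the 250 bases before the start are shown, since the first holds both motifs and the second holds the kB motif and belongs to the NF-kB list. Capitals mark the motifs on either strand.
Cxcl10: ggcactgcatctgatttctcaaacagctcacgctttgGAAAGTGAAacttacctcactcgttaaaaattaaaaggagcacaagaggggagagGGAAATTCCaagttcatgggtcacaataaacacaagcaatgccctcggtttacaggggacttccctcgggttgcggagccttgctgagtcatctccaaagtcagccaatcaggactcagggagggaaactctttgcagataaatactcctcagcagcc
Tnfaip2: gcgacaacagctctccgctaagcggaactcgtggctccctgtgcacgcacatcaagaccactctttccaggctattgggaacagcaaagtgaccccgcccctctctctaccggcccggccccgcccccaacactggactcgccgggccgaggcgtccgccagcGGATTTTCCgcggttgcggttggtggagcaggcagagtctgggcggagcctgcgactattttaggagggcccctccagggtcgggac

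**Figure D2:**
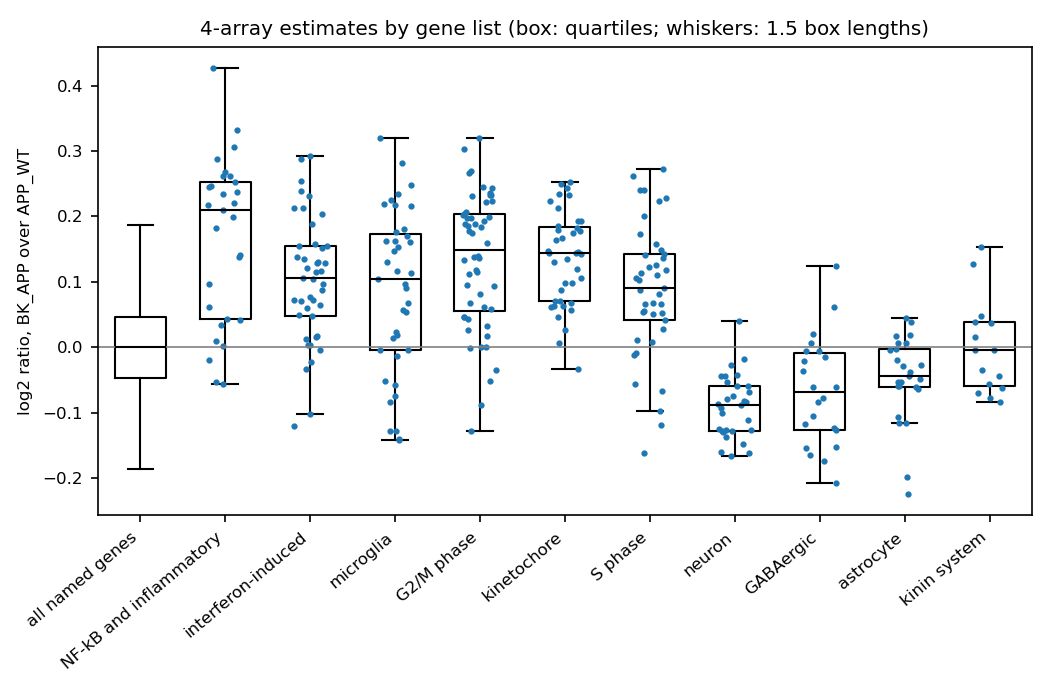
Estimates (log2 ratio of BK_APP over APP_WT, vertical axis) of the expressed genes of 10 lists, 1 point per gene, with boxes for the quartiles and, on the left, the box of all named genes. The NF-kB box lies highest, with a median of 0.21, and the neuron box lies lowest, with a median of −0.09, while the kinin system and all named genes are centered on 0.

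Microglial genes lay above 0 in part. Of 39 expressed genes 28 had an estimate above 0, with a median of 0.10, and 9 were higher and 0 lower at an unadjusted p below 0.05. The medians were 0.17, 0.13, 0.17 and −0.03 on arrays 1 to 4 (SD 0.10), and the median of the estimates was 0.15 without array 4 and 0.04 without array 3. The estimates within the list ranged from −0.14 to 0.32, and members lay on both sides of 0. Tyrobp, the adaptor of Trem2, had values of 0.15, 0.37, 0.44 and 0.32 (0.32 ± 0.12), and Lilrb4a, an inhibitory receptor of myeloid cells, had 0.38, 0.22, 0.34 and 0.19 (0.28 ± 0.09) with an unadjusted limma p of 0.000207. C1qb, a chain of complement C1q, had 0.24, 0.07, 0.39 and 0.29 (0.25 ± 0.13). All 3 were above 0 on every array. The defining markers given above differed among themselves, with Aif1 at 0.22 ± 0.19 and Cx3cr1 at 0.17 ± 0.21, both with an unadjusted p below 0.05, and Csf1r at 0.02 ± 0.06 and Tmem119 at −0.01 ± 0.24. Values of Cx3cr1 differed with the dye orientation, with means of 0.34 on arrays 1 and 2 and 0.00 on arrays 3 and 4.

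Of 20 expressed genes that microglia express near amyloid plaques 12 had an estimate above 0, 4 were higher and 0 lower at an unadjusted p below 0.05, and 4 were above 0 on all 4 arrays. The median was 0.07, or 0.04 without array 2 or array 3 and 0.10 without array 4. Gpnmb, a glycoprotein of lipid-laden phagocytes, had values of 0.29, 0.49, 0.35 and 0.28, with an estimate of 0.35 ± 0.10 and a 95% interval from 0.23 to 0.47. Its unadjusted limma p of 5.27e-05 was the smallest of all expressed probes, and its adjusted p was 0.967. In contrast to the chemokines, array 4 did not stand apart for this gene. Trem2, the receptor for lipids on microglia, had 0.19, 0.48, 0.09 and 0.12 (0.22 ± 0.18).

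Genes that the study itself measured by RT-PCR all had estimates above 0, namely Aif1 (0.22 ± 0.19), C3 (0.24 ± 0.33), Ccl12 (0.25 ± 0.18), Ccl3, Ccl5, Cx3cr1 (0.17 ± 0.21), Tlr2 (0.23 ± 0.15) and Tnf (0.14 ± 0.21). Of these 8, 5 were higher at an unadjusted p below 0.05, and Tlr2, a receptor for bacterial lipoproteins, was the 1 above 0 on all 4 arrays, with 0.18, 0.21, 0.44 and 0.11. Ccl12 was well above background on 3 arrays in BK_APP and on 2 in APP_WT. By RT-PCR in the same RNA, the paper reports Tlr2 and Ccl12 as significantly increased in BK_APP. For Ccl3, Cx3cr1, Tnf and Aif1 (Iba-1) it reports no significant difference with treatment. Of 24 immune genes that the study lists for BK_APP, 23 were above 0 and 18 were higher at an unadjusted p below 0.05. That list was chosen on these same arrays and is no independent evidence of its direction.

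For APP_WT over WT, a comparison that shares the APP_WT samples, the list medians were 0.86 for the NF-kB list, 1.25 for the interferon-induced list and 1.12 for the microglial list. Beside them stood 0.21, 0.11 and 0.10 for BK_APP over APP_WT.

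Genes of cell division had list medians above 0 on every array. Of 39 expressed genes of the kinetochore, the centromere and the spindle checkpoint, 38 had an estimate above 0, with a median of 0.14. The medians were 0.11, 0.10, 0.20 and 0.10 on arrays 1 to 4 (SD 0.05), and array 4 did not stand apart. At an unadjusted p below 0.05, 12 were higher and 0 lower, and 19 were above 0 on all 4 arrays. Of 52 expressed G2/M phase genes 46 were above 0, with a median of 0.15, medians of 0.21, 0.05, 0.29 and 0.07 on the arrays, and 19 higher and 0 lower genes. Of 41 expressed S phase genes 34 were above 0, with a median of 0.09, medians of 0.07, 0.04, 0.20 and 0.10, and 14 higher genes and 1 lower.

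The highest fold of a named division gene was 1.25. Cdca3, which helps to trigger the degradation of Wee1 at mitotic entry, had values of 0.42, 0.42, 0.33 and 0.10 (0.32 ± 0.15), with an unadjusted limma p of 0.00135. Birc5, the survivin subunit of the chromosomal passenger complex, had 0.31, 0.26, 0.41 and 0.10 (0.27 ± 0.13), and Ndc80, which ties kinetochores to microtubules, had 0.33, 0.10, 0.35 and 0.14 (0.23 ± 0.13). All 3 were above 0 on every array. Spc25, a partner of Ndc80, had 0.17, 0.17, 0.47 and 0.19 (0.25 ± 0.14), while Cenpa, the histone of the centromere, had 0.33, 0.34, 0.35 and −0.05 (0.24 ± 0.19) and Cenpw 0.08, 0.42, 0.45 and −0.01 (0.23 ± 0.23). The last pair had array 4 just below 0.

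In S phase, E2f8, a repressor of the E2F family, had 0.37, 0.18, 0.28 and 0.26 (0.27 ± 0.08). Dtl, which marks Cdt1 for degradation, had 0.17, 0.20, 0.20 and 0.23 (0.20 ± 0.02), and Rad51ap1, a factor of recombination, had 0.19, 0.22, 0.34 and 0.22 (0.24 ± 0.07). The spread of these genes was small against their estimates. Pcna, the sliding clamp, had −0.03, −0.00, 0.31 and 0.29 (0.14 ± 0.18), so that its value followed the dye orientation. Casp8ap2 was the lower gene of the list, at −0.12 ± 0.13.

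Promoters of late cell cycle genes are known for the CHR element, TTTGAA, near a CCAAT box. In the same window and on both strands, TTTGAA was found for 32 of 46 G2/M phase genes (69.6%) and 15 of 35 kinetochore genes (42.9%), against 20.2% of all symbols and 23.5% of the neuron list. Among S phase genes it was found for 4 of 30 (13.3%), below the share of all symbols. CCAAT was found for 76.1% of G2/M phase, 68.6% of kinetochore and 70.0% of S phase genes, against 41.1% of all. Here too the shares describe the lists, whatever the ratios of their members. Upstream bases of Cenpw (chr10:30200541-30200790, minus strand) and E2f8 (chr7:48881597-48881846, minus strand) are shown as a kinetochore gene and as 1 of the few S phase genes that hold both motifs, which capitals mark on either strand. In Cenpw the last base of CCAAT is also the first base of the reversed TTTGAA.
Cenpw: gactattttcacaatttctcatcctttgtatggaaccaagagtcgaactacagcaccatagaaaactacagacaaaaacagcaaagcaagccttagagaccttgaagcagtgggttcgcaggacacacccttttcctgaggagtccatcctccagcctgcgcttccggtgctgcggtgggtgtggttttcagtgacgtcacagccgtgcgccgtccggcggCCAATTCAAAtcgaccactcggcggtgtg
E2f8: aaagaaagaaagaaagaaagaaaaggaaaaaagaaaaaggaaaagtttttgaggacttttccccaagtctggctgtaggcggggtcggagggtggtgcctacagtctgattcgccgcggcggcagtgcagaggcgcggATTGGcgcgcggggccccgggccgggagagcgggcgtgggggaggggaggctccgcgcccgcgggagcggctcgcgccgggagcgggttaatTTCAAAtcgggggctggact

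**Figure D3:**
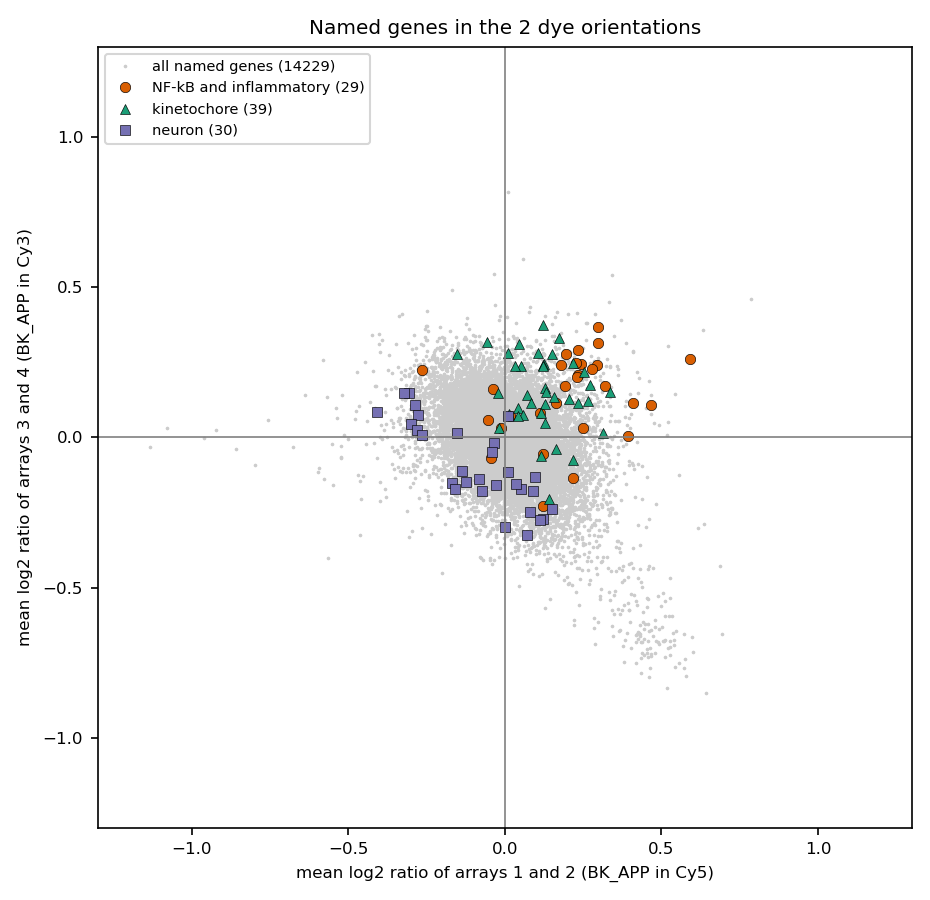
Mean log2 ratio of BK_APP over APP_WT on arrays 1 and 2, with BK_APP in Cy5 (horizontal axis), against that on arrays 3 and 4, with BK_APP in Cy3 (vertical axis), for 14229 named genes with all values (gray) and 3 lists. A dye effect places genes in the upper left and lower right; most NF-kB and kinetochore genes lie on the upper right, and the neuron genes lie along the left and lower edges of the cloud.

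Neuronal genes lay mostly below 0. Of 30 expressed genes 29 had an estimate below 0, where 50.5% of all named genes were above it, with a median of −0.09 and medians of −0.02, −0.10, −0.13 and −0.10 on arrays 1 to 4 (SD 0.05). With each array centered on its median the list stood at −0.02 and the median of all probes at 0.04. Of the 30 genes 3 (6 without array 4) were lower at an unadjusted p below 0.05, where 2.16% of all named genes were, and 4 were below 0 on all 4 arrays, where 4.52% of all were. The estimates ranged from −0.17 to 0.04. Tubb3, the tubulin of neurons, had values of −0.08, −0.17, −0.08 and −0.22 (−0.14 ± 0.07). Nefl, the light neurofilament chain, had 0.11, −0.10, −0.37 and −0.23 (−0.15 ± 0.20), and Celf4, an RNA-binding protein of neurons, had −0.29, −0.26, −0.02 and 0.06 (−0.13 ± 0.18). Only the first of these was below 0 on every array. The other genes differed with the dye orientation. Nefl had means of 0.00 on arrays 1 and 2 and −0.30 on arrays 3 and 4, and Celf4 had −0.28 and 0.02.

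GABAergic genes had a median of −0.07, with 4 of 22 above 0 and 3 lower at an unadjusted p below 0.05. The medians were −0.04, 0.06, −0.07 and −0.11 on arrays 1 to 4, with array 2 above 0, and the median of the estimates lay between −0.08 and −0.05 with 1 array left out. Prokr2, a receptor of migrating olfactory interneurons, had values of −0.07, −0.17, −0.49 and −0.09 (−0.21 ± 0.19), below 0 on every array. Calb2, which encodes calretinin, was at −0.17 ± 0.18. Of 25 astrocyte genes 6 were above 0, with a median of −0.04, and 3 were lower at that threshold, or 1 without array 4. The list medians were 0.02, 0.01, −0.04 and −0.11 on arrays 1 to 4, so that their sign followed the dye orientation. Gfap, the intermediate filament of astrocytes, had −0.10, −0.48, −0.11 and −0.11 (−0.20 ± 0.19), below 0 on all 4 arrays. Aldoc, a glycolytic aldolase of astrocytes, had 0.14, 0.13, −0.40 and −0.33 (−0.12 ± 0.29), and its sign followed the dye as well. Slc1a2, a glutamate transporter, had 0.06, 0.03, −0.57 and −0.42 (−0.22 ± 0.32), and its other 2 probes had estimates of 0.06 and −0.04.

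Neural stem and oligodendrocyte genes lay on both sides of 0. Of 30 stem and progenitor genes 17 were above 0, with a median of 0.01 and 0 genes past an unadjusted p of 0.05 in either direction. Sox2 was at −0.00 ± 0.16 and Nes, which encodes nestin, at 0.03 ± 0.28. Of 23 oligodendrocyte lineage genes 11 were above 0, with a median of −0.00, and Cnksr3 alone was higher, at 0.24, 0.14, 0.23 and 0.21 (0.20 ± 0.04). The dividing cells behind the cell cycle genes cannot be assigned to a cell type from these data.

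**Figure D4:**
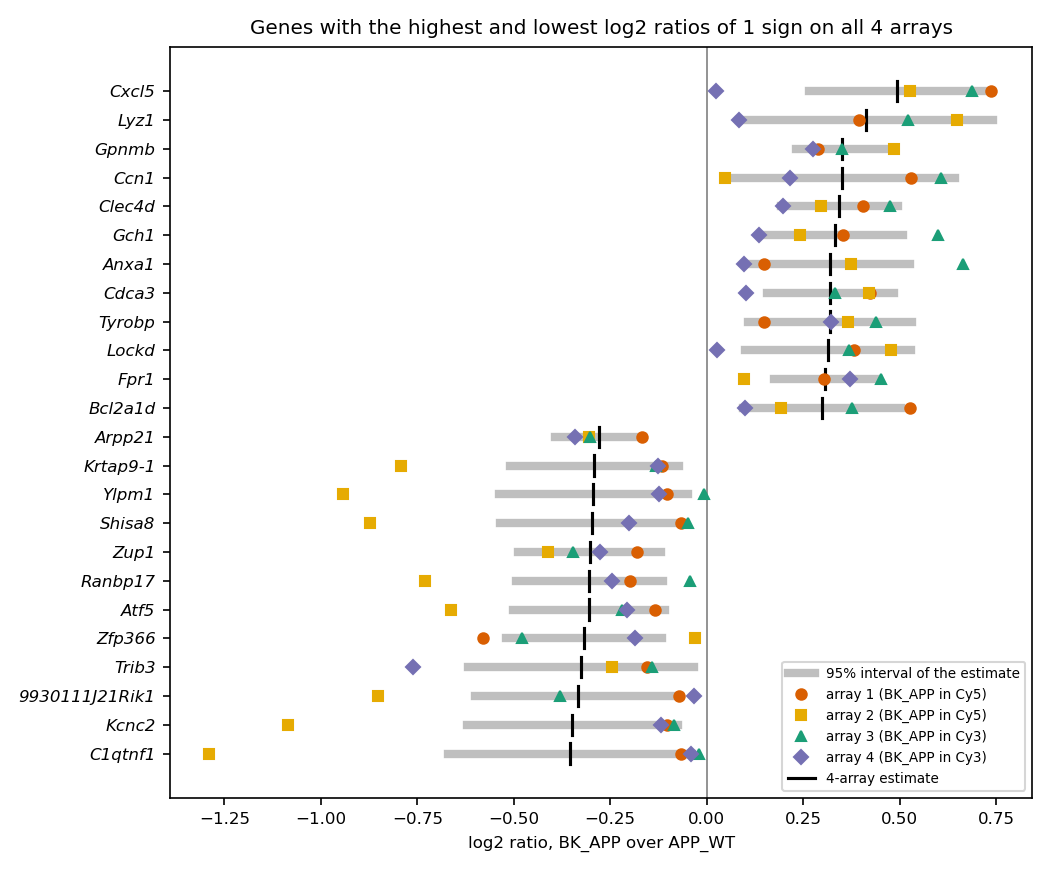
Log2 ratio of BK_APP over APP_WT (horizontal axis) of the 12 genes with the highest and the 12 with the lowest estimates among named genes of 1 sign on all 4 arrays and an unadjusted limma p below 0.05, with 1 symbol per array, a black bar for the estimate and a gray bar for its 95% interval. For most of the higher genes array 4 or array 2 gives the lowest value, and for 8 of the 12 lower genes array 2 gives a value far to the left of the others.

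Without regard to lists, 239 named genes were higher and 180 lower at an unadjusted p below 0.05 with the same sign on all 4 arrays. These genes were chosen by those values, which are given as a description. After Cxcl5 the highest were Lyz1, a lysozyme, at 0.41 ± 0.24, Gpnmb at 0.35, and Ccn1, a matrix protein that growth factors and YAP induce, at 0.35 ± 0.26. Clec4d, a lectin receptor of myeloid cells, was at 0.34 ± 0.12, but well above background on 3 arrays in BK_APP and on 1 in APP_WT. Anxa1, which limits inflammation, had values of 0.15, 0.37, 0.66 and 0.10 (0.32 ± 0.26), and Fpr1, a receptor for formylated peptides to which annexin A1 also binds, had 0.30, 0.10, 0.45 and 0.37 (0.31 ± 0.15). The higher genes thus included several of myeloid cells as well as the division gene Cdca3.

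The lower genes depended more on single arrays. C1qtnf1 had values of −0.07, −1.29, −0.02 and −0.04, with an estimate of −0.35 ± 0.62, and Kcnc2, a potassium channel of fast-spiking interneurons, had −0.10, −1.09, −0.09 and −0.12 (−0.35 ± 0.49). In both, array 2 was more than 0.9 below the others. Genes with even values were Zup1, a deubiquitinase, at −0.18, −0.41, −0.35 and −0.28 (−0.30 ± 0.10), and Arpp21, a phosphoprotein of striatal neurons, at −0.17, −0.31, −0.30 and −0.34 (−0.28 ± 0.08) with an unadjusted limma p of 0.000258. The other 2 probes of Arpp21 had estimates of 0.01 and −0.09, so that this result was that of 1 probe. Trib3 and Chac1, which the integrated stress response induces, had −0.33 ± 0.29 and −0.20 ± 0.12, while the stress response list as a whole had a median of −0.01 over 24 genes.

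Some genes differed more between arrays than between groups. Slc10a1 and Kctd14 had the largest dye coefficients of named genes besides Spag7, at 0.75, 0.68 and 0.69. Slc10a1 had values of 0.72, 0.56, −1.19 and −0.51, which followed the dye on all arrays and gave an estimate of −0.10 ± 0.91. Nt5c3b had −2.36 on array 1 and between −0.06 and 0.09 on the others, and its other probe had an estimate of 0.00. Klhdc1 had −2.09 on array 2 and between −0.07 and 0.05 on the others. For Nt5c3b and Klhdc1 the estimate rested on 1 array. For Slc10a1 the SD holds the dye effect, which the dye term removed from the estimate.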

How the data were processed

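The authors deposited, per array, median intensity values of each spot and its background in both channels and processed intensities (Feature Extraction 11.0.1.1 in the file headers), and a table of log2 ratios over all arrays. Scanner-computed log10 ratios that the authors deposited too were used only to identify that table, which is treated over untreated with unstated normalization (column medians −0.00343, 0.036, 0.0115 and 0.00168). Median signals were background-corrected by normexp (offset 50) and loess-normalized (span 0.3) with limma 3.58.1 (R 4.3.3), without control and uneven spots, and spots of a probe were averaged. The number of arrays limits the precision.

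Probes well above background in 1 condition on at least 3 of 4 arrays of any comparison were kept (29361 of 55681). One limma model over 12 arrays had a BK or other treatment and a dye coefficient per comparison, and was tested on simulated data. Of the probes kept, 18765 were named through RefSeq accessions. Members, lists and the rule for named genes (all kinin genes, the RT-PCR genes, the 12 highest and 12 lowest of 1 sign, up to 4 per list below an unadjusted p of 0.05 and, where a list is described at length, further members by size, the 4 with the largest SD, the 3 with the largest dye term) were chosen with earlier results of these data known. Genes near 0 that are named for contrast were chosen after their values were seen. Replicate numbers paired the samples: residuals of equal numbers correlated, with r = 0.205 and 0.506 against APP_WT over WT. Against HOE_APP over APP_WT the values were r = 0.420 and 0.431. The limma p-values of the main fit take no account of these correlations. Results of some genes are not reported here. Alternatives covered normalization, background correction, filter, model, tests and left-out arrays.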

Additional observations from a re-analysis of the deposited data

Results flagged for a closer look

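On 13 of 112 values checked (genes of the naming rule without further list members, and list medians), 1 array lay further from the other 3 than Dixon's 95% critical value allows, which chance alone does for about 1 in 20 groups that were not chosen by their values. Apart from the kinin genes, the RT-PCR genes and the list medians, these genes were chosen by their values on the same arrays. The choice was by the largest SDs and dye terms, the highest and lowest estimates, or an unadjusted limma p below 0.05 within a list. Among them were Klhdc1, Nt5c3b, C1qtnf1, Kcnc2, Krtap9-1, Ylpm1, Atf5, Trib3, Gfap, Calb2, Cenpa and Spc25. The rate therefore does not apply to them or to the count as a whole. The array concerned was array 1 once, array 2 in 7 cases, array 3 in 2 and array 4 in 3. On array 2 the low values were those of Klhdc1 (−2.09), C1qtnf1 (−1.29), Kcnc2 (−1.09), Ylpm1 (−0.94), Krtap9-1 (−0.79), Atf5 (−0.66) and Gfap (−0.48). Low spots of that array had a low neighbor within 5 rows and columns in 72.8% of cases, and the part of this in the values was not tested. On array 1 the value of Nt5c3b was −2.36.

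On array 3 the high values were those of Spc25 (0.47) and of the kinetochore list median (0.20), against 0.10 to 0.11 on the other arrays for the list. On array 4 the values of Trib3 (−0.76), Calb2 (−0.44) and Cenpa (−0.0467) lay below those of the other arrays.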

How the results depend on the processing

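Under all settings run with 4 arrays, 0 probes passed the adjusted threshold of limma. Leaving out 1 array gave between 0 and 62 such probes, between 359 and 788 higher and between 354 and 953 lower at an unadjusted p below 0.05. Without array 1, 62 passed, of which 61 were lower in BK_APP, and without array 2 or array 4 there were 2 each. The numbers of lower probes were 245 with median centering, 432 with processed signals and 365 with the authors' ratios. Without a filter 983 were higher and 1296 lower, in a model of the 4 arrays without dye 411 and 310, and by the methods' SAM and rank products together 338 and 195. The block on the replicate number, which pairs the samples, gave 649 higher, 678 lower and 0 adjusted, and changed no other call. The neuron list median moved to −0.0241 with median centering, and the medians of the NF-kB, interferon, microglia, kinetochore, G2/M, S phase and neuron lists, for which these alternatives were run, kept their sign. The S phase median was 0.15 with median centering, and the NF-kB median was 0.138 without a filter, below the kinetochore median at 0.143. With processed signals the microglia and interferon medians were 0.17 and 0.16, and with the authors' ratios they were 0.15 and 0.16. With 1 array left out, the medians ranged from 0.12 to 0.26 (NF-kB), 0.04 to 0.16 (interferon), 0.04 to 0.15 (microglia), 0.10 to 0.17 (kinetochore), 0.11 to 0.19 (G2/M), 0.08 to 0.12 (S phase) and −0.11 to −0.07 (neuron). Of the 105 genes of the naming rule without further list members, 6 changed sign with median centering, 4 with processed signals, 4 of 103 with the authors' ratios, between 3 and 5 with 1 array left out and 1 with the mean over probes, none of which had an unadjusted p below 0.05. The filter on the 4 arrays alone and the alternatives for the cell cycle and neuron list medians were added after seeing the data. Apart from these constructions, the cause of a difference was not tested.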

Other observations

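Some genes of smooth muscle and contractile cells differed widely between arrays. Cnn1, which encodes calponin of smooth muscle, had the highest estimate of all named genes, with values of 1.09, 0.48, 0.94 and −0.02 (0.62 ± 0.50, SD, n = 4), and was not among the genes of 1 sign on all arrays. Tagln (0.80, −0.11, 1.15 and −0.07) and Acta2 (0.87, −0.05, 0.81 and −0.24), which encode proteins of the contractile apparatus, had estimates of 0.44 ± 0.63 and 0.35 ± 0.58. Arrays 1 and 3, which differ in dye orientation, were the high ones for both. Of the 15 expressed genes of the pericyte and fibroblast list 10 were above 0, with a median of 0.01 (between −0.01 and 0.08 with 1 array left out), and Rgs5, a marker of pericytes, was well above background on no array.

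Hypoxia-responsive and glycolytic genes had 6 of 28 estimates above 0, with a median of −0.05, or −0.01 without array 4 and −0.09 without array 3. On arrays 1 to 4 the medians were −0.06, −0.13, 0.03 and −0.08, and Gpi1, a glycolytic isomerase, was at −0.15 ± 0.08. Of 30 genes of cholesterol and fatty acid synthesis 22 were above 0, with a median of 0.03, or 0.05 without array 1 and 0.02 without array 3, and medians of 0.01, 0.01, 0.08 and 0.08 on arrays 1 to 4.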
